A study of Homo sapiens with 8 samples.

Results

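The ErbB genes described here are the 4 receptors (EGFR, ERBB2, ERBB3 and ERBB4), 4 of their ligands (EGF, HBEGF, TGFA and NRG4) and 2 inhibitors of receptor signalling (ERRFI1 and LRIG1). They were chosen by gene name, with earlier results of these data known, and all 10 were found among the 36474 genes of the count table. The cells were LNCaP, an established androgen-responsive line from a human prostate carcinoma metastasis. Adherent cells were kept for 6 to 12 h in medium lacking serum and calcium, then exposed to 100 ng/mL of recombinant human ASPN (asporin, which stromal cells secrete into the matrix), and RNA was taken at 0 h (2 libraries), 12 h (3 libraries) or 24 h (3 libraries). Every library is of the same unmodified line, and no starved library of 12 or 24 h without ASPN was analysed here, so the effect of ASPN and that of further time in starvation medium cannot be told apart. The labels call the libraries biological replicates and describe plating in triplicate wells without saying whether these were separate cultures, so p values measure the spread between these samples, which may be technical.

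ErbB receptors are tyrosine kinases that signal as dimers at the cell surface. EGF, HBEGF and TGFA bind EGFR, HBEGF also binds ERBB4, the neuregulins bind ERBB3 or ERBB4, and ERBB2 (HER2) has no known soluble ligand of its own and serves as the preferred partner of the others. ERBB3 (HER3) has a weak kinase, depends on its partner for phosphorylation, and couples strongly to PI3K. The study set out to learn how ASPN from the stroma acts on prostate cancer cells, and the comparison of times made here asks whether transcripts of the receptors, their ligands and their inhibitors changed during exposure. Protein levels and receptor phosphorylation are not measured by these counts.

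Libraries held 73406825 to 96962135 counts, of which 49729 to 67059 fell on the 10 genes. Levels are given in CPM, counts relative to the TMM-normalized library total. Where a library has 0 counts, 3 counts were taken as the upper limit, which is 0.031 to 0.0413 CPM and covers counting error only. All 9 luminal prostate markers were present, with a summed level of 5188 to 5266 CPM at 0 h, 5638 to 5716 CPM at 12 h and 5650 to 5822 CPM at 24 h; 5 of 9 were higher at 12 h and 7 were higher and 1 lower at 24 h (edgeR, adjusted p of at most 0.05), beside 4.85% of all genes tested that were higher at 12 h and 7.82% higher and 8.49% lower at 24 h. Of 7 stromal markers in the file, COL1A1 gave 18.9 to 21.3 of the summed 21.2 to 23.9 CPM, while FAP, DCN and ASPN itself were at 0 or close to it. The 4 endothelial markers summed to 11.2 to 17.3 CPM, nearly all from VWF, which was lower at 24 h, with PECAM1, CDH5 and KDR at or near 0. The 4 immune markers summed to 0.0519 to 0.22 CPM. The part of these marker shifts in the results below was not tested.

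The receptors were the most abundant transcripts of the family apart from ERBB4. Per kilobase of exon, ERBB2 had the highest mean level over the 8 libraries, 22.8 ± 2.14 CPM per kilobase (SD, n = 8), followed by ERBB3 at 15.7 ± 0.931 and EGFR at 11 ± 1.03. The ranges of these 3 genes over libraries did not overlap. LRIG1 at 8.86 ± 0.363 CPM per kilobase and ERRFI1 at 7.74 ± 0.622 came next, and their ranges did overlap. Among the ligands HBEGF stood at 2.02 ± 0.222 CPM per kilobase and EGF at 1.47 ± 0.222, again with overlapping ranges, TGFA at 0.74 ± 0.0701 and NRG4 at 0.12 ± 0.0269. ERBB4 was the lowest, at 0.0251 ± 0.00526 CPM per kilobase. The order of the 10 genes was the same when the longest transcript was used as the length.

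**Figure D1:**
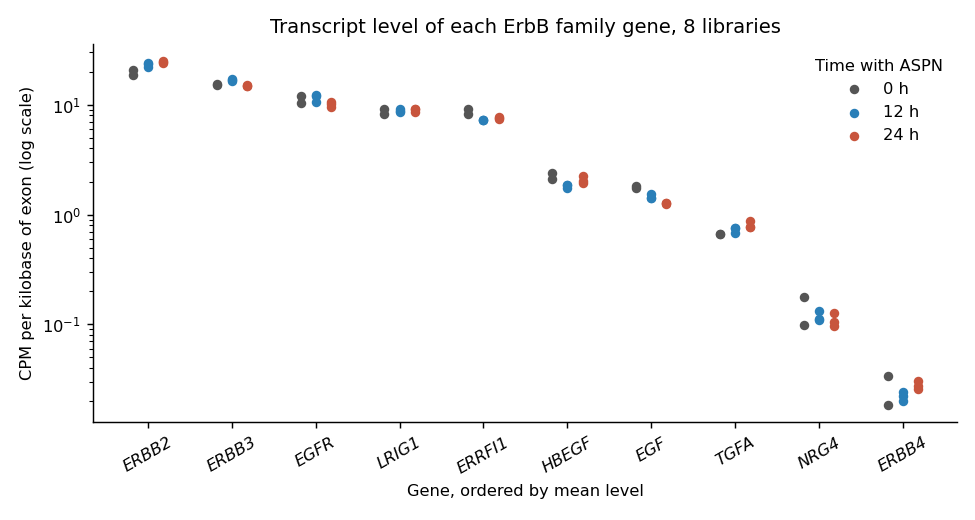
Level of each of the 10 genes in the 8 libraries, in CPM per kilobase of exon on a log axis, with genes ordered by their mean and libraries coloured by time with ASPN. The receptors ERBB2, ERBB3 and EGFR lead at means of 22.8, 15.7 and 11 CPM per kilobase, and ERBB4 is lowest at 0.0251.

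Shifts within the family were modest in size and went in both directions. At 12 h, ERBB2 and ERBB3 were higher and EGF and ERRFI1 lower than at 0 h by edgeR's quasi-likelihood test with Benjamini-Hochberg adjustment over all 21071 genes tested, that is 2 of 10 higher and 2 of 10 lower at an adjusted p of at most 0.05, where 4.85% of all genes tested were higher and 6.75% lower. At 24 h, ERBB2 was higher and EGF and ERRFI1 lower, against 7.82% of all genes higher and 8.49% lower. Between 12 and 24 h, EGFR and ERBB3 fell and no member rose (0 at an unadjusted p under 0.05 and 0 with DESeq2), against 1.12% of all genes higher and 1.61% lower. Over the 3 times together, 5 of 10 differed (EGFR, ERBB2, ERBB3, EGF and ERRFI1), against 16.4% of all genes. Without replicate 1 of 0 h, which leaves a single time-0 library, the members past the threshold came to 0 at 12 h and 2 at 24 h.

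The fold change of 1.5 that the study required in addition was reached by 0 of 10 members in any comparison (0 also at an unadjusted p under 0.05 and 0 with DESeq2), against 1.05% of all genes at 12 h, 2.45% at 24 h and 0.18% between 12 and 24 h. The median log2 fold change of the 10 members was -0.108 at 12 h, -0.073 at 24 h and 0.042 between 12 and 24 h, beside -0.001, -0.003 and 0.003 over all genes tested. Libraries of 12 h lay wholly above those of 0 h for 3 members and wholly below for 3, where 17.3% of all genes tested lay above and 19.6% below. At 24 h against 0 h this held for 2 members above and 2 below, against 21.5% and 21.7% of all genes, and for 24 h against 12 h for 5 above and 3 below, against 10.3% and 9.33%. Both comparisons with 0 h use the same 2 time-0 libraries.

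**Figure D2:**
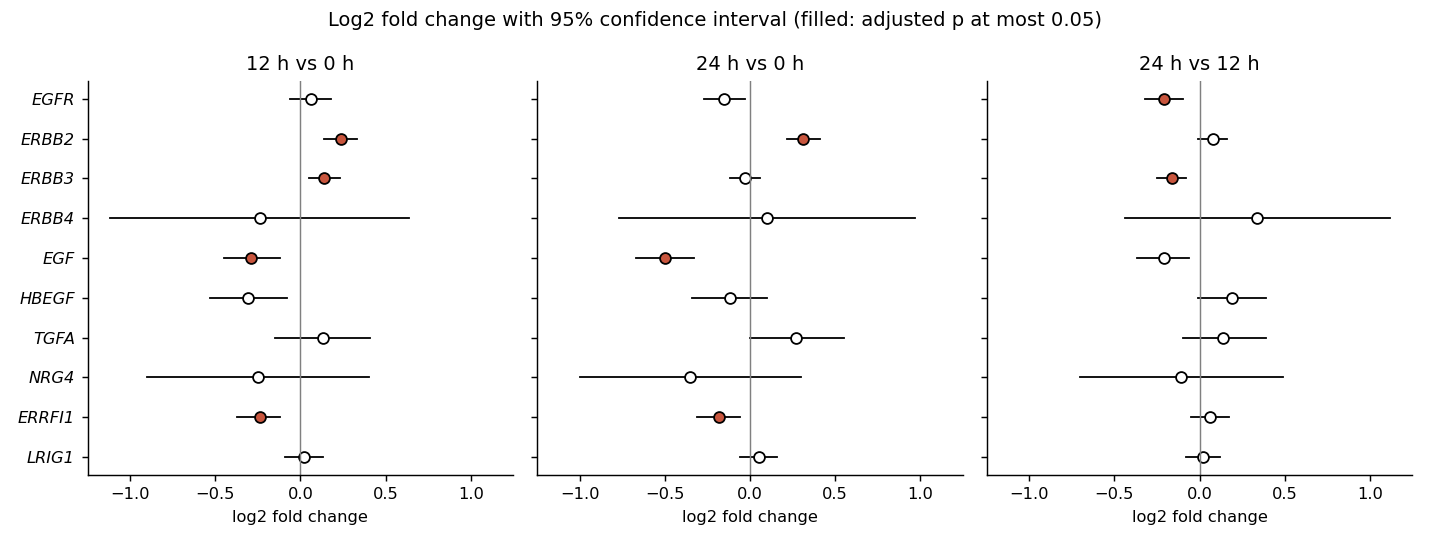
Log2 fold change of each member in the 3 comparisons, with bars for the 95% confidence interval and filled points where the adjusted p was at most 0.05. ERBB2 lies to the right of 0 at both times and EGF and ERRFI1 to the left, while the intervals of ERBB4 and NRG4 are the widest.

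EGF and ERRFI1 were the members lower at both 12 and 24 h, and ERBB2 was the member higher at both. The sequence upstream of the start site was taken for these members for that reason. The ERBB2 window is covered by annotated exons, so only EGF and ERRFI1 are shown. From 12 to 24 h the log2 fold changes of EGF and ERRFI1 differed in sign (-0.21 and 0.06), and neither passed the threshold. RefSeq windows on GRCh38.p14 were matched for 9 of the 10 members. The stretches below end at the base before the start site and hold no annotated exon of GENCODE 44. They lie on the plus strand of chr4:109912633-109912882 for EGF and on the minus strand of chr1:8026310-8026559 for ERRFI1, written 5′ to 3′ along the gene, and capitals mark the motif matches.
EGF: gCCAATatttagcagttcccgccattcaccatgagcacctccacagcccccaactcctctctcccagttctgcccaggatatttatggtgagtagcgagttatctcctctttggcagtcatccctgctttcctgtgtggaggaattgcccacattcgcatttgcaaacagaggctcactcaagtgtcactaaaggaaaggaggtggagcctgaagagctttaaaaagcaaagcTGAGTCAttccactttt
ERRFI1: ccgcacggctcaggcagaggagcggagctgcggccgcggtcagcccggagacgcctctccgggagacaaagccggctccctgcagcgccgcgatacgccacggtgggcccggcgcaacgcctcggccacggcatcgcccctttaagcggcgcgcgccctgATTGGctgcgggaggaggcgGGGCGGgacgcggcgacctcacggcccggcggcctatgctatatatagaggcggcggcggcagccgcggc
The motifs searched on both strands were CCAAT (the CCAAT box), GGGCGG (the GC box), TGACTCA or TGAGTCA (the AP-1 site), TATAAA (the TATA box) and GTAAACA (a forkhead site), and no match overlapped another in these stretches. The EGF stretch was 48.8% G and C and held 1 CCAAT box and 1 AP-1 site, which occur in 32.0% and 4.2% of the 35116 windows of 250 bases. The ERRFI1 stretch was 75.2% G and C and held 1 CCAAT box on the opposite strand and 1 GC box, the latter found in 42.6% of windows. Neither held TATAAA (10.7% of windows) or GTAAACA (2.98%). A match describes letters and is no evidence of a bound factor.

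Among the receptors, ERBB2 rose at both times. ERBB2 stood at 193.9 and 213.4 CPM at 0 h, at 248.3, 229.4 and 241.3 CPM at 12 h, and at 257.9, 251.2 and 250.1 CPM at 24 h. All libraries with ASPN were above both time-0 libraries, and the 24 h libraries were above the 12 h ones. ERBB2 was 1.18-fold higher at 12 h (log2 fold change 0.24, SE 0.047, adjusted p = 0.000901) and 1.24-fold higher at 24 h (0.31, SE 0.048, adjusted p = 9.76e-06). From 12 to 24 h the log2 fold change was 0.08 (95% CI -0.01 to 0.16, adjusted p = 0.428). The 24 h call held under all 16 alternatives and the 12 h call under 15 of 16. The 12 h call was lost without replicate 1 of 0 h, where the log2 fold change was 0.168. After correction for GC content and length the log2 fold changes were smaller, 0.157 at 12 h and 0.231 at 24 h.

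ERBB2 (ENSG00000141736.14, chr17:39687914-39730426) shares 5.53% of its exon bases with MIEN1 and 1.4% with PGAP3, both transcribed from the opposite strand. Whether the counting used strand is not given in the sources used here, so a small part of the reads could belong to either neighbour. MIEN1 had means of 36.6, 40.0 and 41.9 CPM at 0, 12 and 24 h, and was higher at 24 h (log2 fold change 0.19, adjusted p = 0.015) but not past the threshold at 12 h (0.13, adjusted p = 0.161). PGAP3 had means of 13, 15 and 15 CPM and passed the threshold at neither time (adjusted p = 0.105 and 0.0827).

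ERBB3, the receptor named in the title of the series, rose at 12 h and was back near its starting level at 24 h. ERBB3 stood at 176.2 and 180.8 CPM at 0 h, 201.6, 192.9 and 195.3 CPM at 12 h, and 172.6, 174.5 and 179.0 CPM at 24 h. The 12 h libraries lay above all others, and the 0 and 24 h libraries overlapped. The increase at 12 h was 1.10-fold (log2 fold change 0.14, SE 0.044, adjusted p = 0.0354), and the decrease from 12 to 24 h was -0.16 on the log2 scale (SE 0.039, adjusted p = 0.0149). The 24 h level differed from 0 h by -0.03 (95% CI -0.12 to 0.06, adjusted p = 0.776). The 12 h call is the least firm of the family: 7 of 16 alternatives ended it, among them a fit to 0 and 12 h alone (adjusted p = 0.111) and leaving out replicate 1 of 0 h (0.279), replicate 1 (0.0503) or 3 (0.0709) of 12 h, or replicate 1 (0.0572), 2 (0.0506) or 3 (0.0609) of 24 h. The decrease from 12 to 24 h lost its call without replicate 3 of 12 h (0.0634) or replicate 1 (0.12), 2 (0.0927) or 3 (0.0541) of 24 h.

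EGFR, which binds EGF, HBEGF and TGFA, was lower at 24 h than at 12 h. EGFR stood at 191.2 and 166.9 CPM at 0 h, 193.8, 169.8 and 197.0 CPM at 12 h, and 160.6, 153.7 and 169.1 CPM at 24 h. The time-0 libraries differed by more from each other than the groups of 0 and 12 h did in their means, and the highest 24 h library lay above the lower time-0 library. From 12 to 24 h EGFR fell by 0.21 on the log2 scale (SE 0.053, adjusted p = 0.0241). Against 0 h the log2 fold change was 0.06 at 12 h (95% CI -0.06 to 0.18, adjusted p = 0.602) and -0.15 at 24 h (95% CI -0.27 to -0.03, adjusted p = 0.0825). The decrease from 12 to 24 h was not called after correction for GC content and length (0.171) or without replicate 1 (0.253) or 3 (0.143) of 12 h or replicate 1 (0.0937) or 2 (0.16) of 24 h. Without the unnumbered 0 h library the difference between 24 and 0 h passed the threshold (0.0149), as it did without replicate 2 of 12 h (0.0294), with no low-count filter (0.0306) and with 0 and 24 h alone (0.023).

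ERBB4, the receptor for neuregulins that has a full kinase, was close to the limit of detection, with 21 and 32 counts at 0 h, 24, 23 and 25 counts at 12 h and 36, 32 and 26 counts at 24 h. These are 0.238 and 0.44 CPM at 0 h, 0.258 to 0.311 CPM at 12 h and 0.331 to 0.396 CPM at 24 h, and the 0 h libraries enclosed all the others. The log2 fold change was -0.24 at 12 h (95% CI -1.12 to 0.64, adjusted p = 0.806) and 0.10 at 24 h (95% CI -0.77 to 0.97, adjusted p = 0.923). A change within these bounds was not detectable at this depth.

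Relative to ERBB3, ERBB2 counts were highest at 24 h. Within each library the ratio of ERBB2 to ERBB3 counts, which needs no scaling between libraries, was 1.10 and 1.18 at 0 h, 1.232, 1.189 and 1.236 at 12 h, and 1.494, 1.44 and 1.397 at 24 h. All 24 h libraries were above all 12 h libraries, and these were above both time-0 libraries. The mean ratio was 1.14 ± 0.0564 (SD, n = 2) at 0 h, 1.219 ± 0.0257 (n = 3) at 12 h and 1.444 ± 0.0488 (n = 3) at 24 h. On the log2 scale the mean difference was 0.097 for 12 against 0 h, 0.341 for 24 against 0 h and 0.244 for 24 against 12 h, each with an exact two-sided permutation p = 0.1. That does not pass 0.05, and 0.1 is the smallest p these numbers of libraries allow. The ratio was not corrected for GC content or length.

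Per kilobase of exon, ERBB2 made up 41 and 44.3% of the 4 receptors' counts at 0 h, 44.6 to 45% at 12 h and 48.3 to 50.1% at 24 h. ERBB3 made up 32.8 and 33.1% at 0 h, 31.8 to 33.4% at 12 h and 29.6 to 30.5% at 24 h. EGFR made up 26.2 and 22.5% at 0 h, 21.6 to 23.6% at 12 h and 19.7 to 21.2% at 24 h. The 24 h libraries therefore had the highest ERBB2 share and the lowest ERBB3 and EGFR shares, with no overlap with the other times. ERBB4 held 0.04 to 0.0726% in every library.

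**Figure D3:**
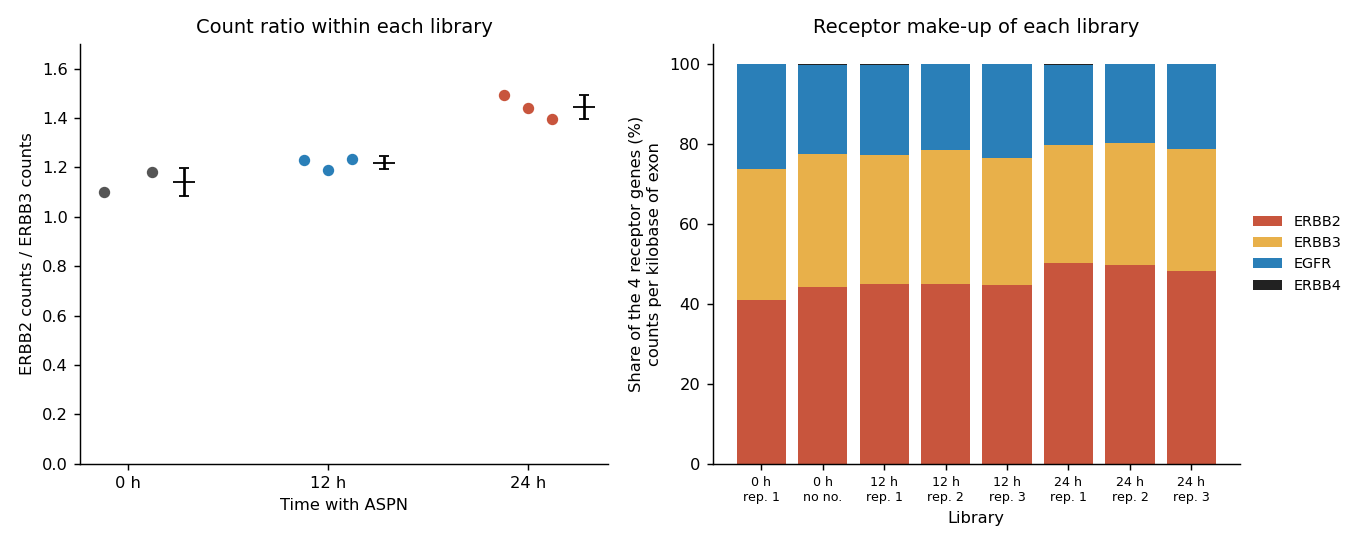
Left, ratio of ERBB2 to ERBB3 counts within each library by time with ASPN, with bars for the mean ± SD (n = 2 at 0 h, n = 3 at 12 and 24 h). Right, share of each receptor in the summed counts per kilobase of exon of the 4 receptors, one bar per library; the ERBB2 share runs from 41% in a 0 h library to 50.1% in a 24 h library, and ERBB4 is too scarce to be seen.

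Among the ligands, EGF showed the largest called decrease of the family. EGF, a ligand of EGFR, stood at 14.0 and 13.2 CPM at 0 h, 10.9, 10.7 and 11.8 CPM at 12 h, and 9.62, 9.69 and 9.50 CPM at 24 h. The 3 groups did not overlap. EGF was at 0.82 of its 0 h level at 12 h (log2 fold change -0.29, SE 0.082, adjusted p = 0.0189) and at 0.707 at 24 h (-0.50, SE 0.083, adjusted p = 3.5e-05). The 24 h call held under all 16 alternatives, while the 12 h call was lost after correction for GC content and length (0.0605) and without replicate 1 of 0 h (0.269), replicate 1 of 12 h (0.0505) or replicate 2 of 12 h (0.0583). From 12 to 24 h the log2 fold change was -0.21 (95% CI -0.37 to -0.06, adjusted p = 0.137).

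HBEGF and TGFA, both ligands of EGFR, did not pass the threshold in any comparison. HBEGF stood at 7.19 and 6.27 CPM at 0 h, 5.55, 5.27 and 5.51 CPM at 12 h, and 5.76, 6.76 and 6.06 CPM at 24 h. Its 12 h libraries were below all others, with a log2 fold change against 0 h of -0.31 (95% CI -0.53 to -0.08, adjusted p = 0.0658), and its 24 h libraries overlapped those of 0 h (-0.12, 95% CI -0.34 to 0.10, adjusted p = 0.534). TGFA stood at 3.24 and 3.30 CPM at 0 h, 3.70, 3.33 and 3.70 CPM at 12 h, and 3.77, 3.82 and 4.28 CPM at 24 h. Its groups were ordered by time without overlap, with a log2 fold change of 0.13 at 12 h (adjusted p = 0.637) and 0.27 at 24 h (95% CI 0.00 to 0.55, adjusted p = 0.192).

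NRG4, a neuregulin that binds ERBB4, was the scarcest ligand of the 4. NRG4 had 79 and 36 counts at 0 h, 42, 50 and 58 counts at 12 h, and 48, 47 and 47 counts at 24 h, or 0.897 and 0.495 CPM, 0.545 to 0.664 CPM and 0.486 to 0.64 CPM. Replicate 1 of 0 h was the highest library and the other time-0 library was among the lowest. The log2 fold change was -0.25 at 12 h (95% CI -0.90 to 0.40, adjusted p = 0.711) and -0.35 at 24 h (95% CI -1.0 to 0.30, adjusted p = 0.533), and both turned positive without replicate 1 of 0 h (0.253 and 0.143). NRG4 shares 38.2% of its exon bases with FBXO22 on the opposite strand, a gene at 47.3, 40.5 and 39.5 CPM that was lower at 12 h (log2 fold change -0.22, adjusted p = 0.00656) and at 24 h (-0.26, adjusted p = 0.000944). Reads of the 2 genes cannot be told apart where the counting ignored strand.

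**Figure D4:**
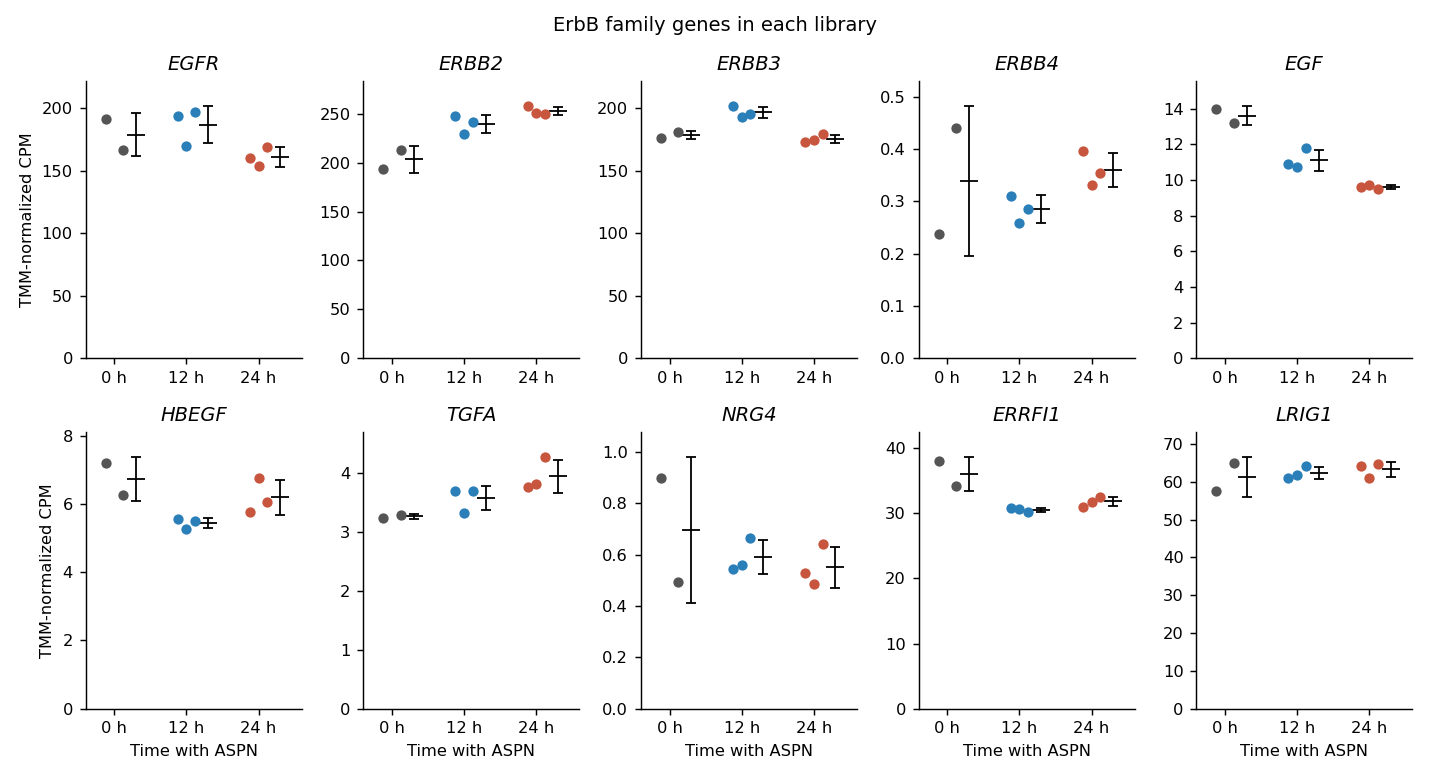
TMM-normalized CPM of each member in every library, one panel per gene with the axis from 0, by time with ASPN; black bars give the mean ± SD (n = 2 at 0 h, n = 3 at 12 and 24 h). ERBB2 libraries at 12 and 24 h lie above both 0 h libraries and those of EGF and ERRFI1 lie below, while NRG4 and ERBB4 have a wide spread at 0 h.

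Of the 2 inhibitors, ERRFI1 passed the threshold against 0 h and LRIG1 did not. ERRFI1 (MIG6) is a feedback inhibitor, induced by receptor signalling in many cell types, that binds the kinase domain of EGFR and its relatives. ERRFI1 stood at 37.9 and 34.2 CPM at 0 h, 30.7, 30.6 and 30.1 CPM at 12 h, and 31.0, 31.7 and 32.5 CPM at 24 h. All libraries with ASPN were below both time-0 libraries. ERRFI1 was at 0.844 of its 0 h level at 12 h (log2 fold change -0.24, SE 0.060, adjusted p = 0.00565) and at 0.88 at 24 h (-0.18, SE 0.060, adjusted p = 0.0301). Without replicate 1 of 0 h neither call remained (0.252 and 0.425), and the 24 h call was also lost without replicate 1 (0.12), 2 (0.0837) or 3 (0.0509) of 24 h. From 12 to 24 h the log2 fold change was 0.06 (95% CI -0.05 to 0.17, adjusted p = 0.701).

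LRIG1, a transmembrane protein that promotes the degradation of ErbB receptors, stood at 57.6 and 65.1 CPM at 0 h, 60.9, 61.7 and 64.1 CPM at 12 h, and 64.3, 61.1 and 64.6 CPM at 24 h. The time-0 libraries enclosed all the others. The log2 fold change was 0.02 at 12 h (95% CI -0.09 to 0.13, adjusted p = 0.859) and 0.05 at 24 h (95% CI -0.06 to 0.16, adjusted p = 0.647), and both intervals end below the log2 change of 0.31 measured for ERBB2 at 24 h. LRIG1 shares 37.9% of its exon bases with SLC25A26 on the opposite strand, at means of 16.3, 15.3 and 15.6 CPM with no change past the threshold (adjusted p = 0.526 and 0.67). The difference in response between ERRFI1 and LRIG1 was not tested.

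Beyond the 10 members, 39 further genes that act around the receptors were listed, of which 36 were tested in the same fit; EREG was not analysed here, and EPGN and NRG2 did not pass the filter on low counts. At 12 h, 3 were higher, 11 lower and 22 did not pass the threshold; at 24 h, 5 were higher, 9 lower and 22 did not pass; between 12 and 24 h, 2 were higher and 1 was lower. Over all genes tested, 4.85% were higher and 6.75% lower at 12 h, 7.82% and 8.49% at 24 h, and 1.12% and 1.61% between 12 and 24 h. Fewer of the 36 passed against 0 h without replicate 1 of 0 h, but not without the other 0 h library. Without replicate 1 of 24 h, 8 passed at 24 h. The median log2 fold change of the 36 was -0.089 at 12 h and -0.057 at 24 h, beside -0.001 and -0.003 over all genes tested.

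Of 6 other ErbB ligands, 3 were tested, and none passed the threshold in a pairwise comparison (by unadjusted p under 0.05, 2 were lower at 12 h and 1 was higher between 12 and 24 h; DESeq2 called the latter). NRG3, a ligand of ERBB4, stood at 5.89 and 5.27 CPM at 0 h, 4.90, 4.45 and 4.83 CPM at 12 h and 6.20, 5.40 and 6.74 CPM at 24 h. Its 12 h libraries were below all others, and it differed over the 3 times together (adjusted p = 0.0368) with a log2 fold change from 12 to 24 h of 0.37 (SE 0.11, adjusted p = 0.052). AREG, a ligand of EGFR, was at 0.156, 0.0354 and 0.082 CPM, near the detection limit, and BTC at 0.326, 0.364 and 0.303 CPM.

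Of 4 genes for the release of ligands from the membrane, 1 was lower and 1 higher at both times, beside 6.75% and 4.85% of all genes tested at 12 h and 8.49% and 7.82% at 24 h. ADAM17, the protease that sheds TGFA and HBEGF, stood at 25.5 and 22.6 CPM at 0 h, 20.1, 18.1 and 19.2 CPM at 12 h, and 17.3, 19.1 and 17.8 CPM at 24 h, with log2 fold changes of -0.33 (SE 0.072, adjusted p = 0.0021) and -0.41 (SE 0.072, adjusted p = 7.94e-05). Its 12 h call was lost without replicate 1 of 0 h (0.176). RHBDF1, an inactive rhomboid that assists ADAM17, had means of 24.6, 28.9 and 29.7 CPM, with log2 fold changes of 0.23 (adjusted p = 0.038) and 0.27 (adjusted p = 0.00927), of which neither passed after correction for GC content and length (0.224 and 0.0734) or without replicate 1 of 0 h (0.541 and 0.297); the 12 h call was also lost with 0 and 12 h alone (0.0707) and without replicate 1 of 12 h (0.169) or 2 of 24 h (0.0516), and the 24 h call without replicate 1 of 24 h (0.0758). ADAM10 and RHBDF2 did not pass. ADAM17 shares 10.3% of its exon bases with IAH1 on the opposite strand.

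Of 12 adaptors and first effectors, 1 was higher and 3 were lower at 12 h, and 2 were higher and 5 lower at 24 h (all genes tested: 4.85% and 6.75% at 12 h, 7.82% and 8.49% at 24 h). The lower genes included the guanine nucleotide exchange factors for RAS, SOS2 (34.0, 28.4 and 27.4 CPM; log2 fold change -0.26, adjusted p = 0.00504 at 12 h and -0.31, adjusted p = 0.000476 at 24 h) and SOS1 (-0.22, adjusted p = 0.0102 and -0.19, adjusted p = 0.0273). The adaptor NCK1 was lower at both times (-0.30, adjusted p = 0.0028 and -0.25, adjusted p = 0.00757), and SHC1, which docks on phosphorylated receptors, was lower at 24 h (151.6, 143.3 and 130.3 CPM; -0.22, adjusted p = 0.000556). PLCG1, phospholipase C gamma, was higher at both times (71.2, 82.3 and 80.8 CPM; 0.21, adjusted p = 0.00454 and 0.18, adjusted p = 0.00869). PIK3R1, the regulatory subunit of PI3K, was higher at 24 h than at 0 h (0.19, adjusted p = 0.0029) and at 12 h (0.15, adjusted p = 0.0333), while the catalytic subunit PIK3CA was lower at 24 h (-0.25, adjusted p = 0.023). Without replicate 1 of 0 h the calls of SOS1, SOS2, NCK1, PLCG1 and PIK3CA were lost, whereas those of SHC1 and PIK3R1 against 0 h held under every alternative run. At 24 h the calls of NCK1, PLCG1, SOS1 and PIK3CA were also lost without replicate 1 of 24 h (0.0613, 0.0525, 0.107 and 0.0928), that of SOS1 without replicate 2 (0.0585) or 3 (0.0674), and that of PIK3CA without replicate 3 (0.073). The call of PIK3R1 between 12 and 24 h was lost without replicate 1 (0.108) or 3 (0.143) of 12 h or any of the 24 h libraries (0.152 to 0.169). GC and length correction ended the calls of SOS1 at both times (0.0647 and 0.0992), NCK1 at 12 h (0.0557) and PIK3CA (0.0901). PIK3CA shares 19.8% of its exon bases with KCNMB3 on the opposite strand, and SHC1 shares 7.72% with PYGO2 on the same strand.

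Of the 36 genes, CBLB, EPS15 and RNF41 had the smallest adjusted p against 0 h. Of 10 genes for receptor decay and inhibition, 1 was higher and 4 were lower at 12 h, and 1 was higher and 2 were lower at 24 h (4.85% and 6.75%, then 7.82% and 8.49%, of all genes tested). CBLB, a ubiquitin ligase for activated receptors, stood at 48.8 and 45.5 CPM at 0 h, 34.6, 33.8 and 36.3 CPM at 12 h, and 27.4, 29.9 and 29.2 CPM at 24 h. The 3 groups did not overlap, and CBLB fell by 0.43 on the log2 scale at 12 h (SE 0.059, adjusted p = 5.03e-06) and by 0.71 at 24 h (SE 0.059, adjusted p = 1.95e-10), the 1 gene of the 36 that passed a fold change of 1.5. It also fell from 12 to 24 h (-0.28, adjusted p = 0.00248), and all 3 calls held under every alternative run. RNF41 (NRDP1), a ubiquitin ligase that controls the amount of ERBB3, stood at 221.8 and 208.7 CPM at 0 h, 188.5, 181.6 and 187.1 CPM at 12 h, and 172.6, 176.7 and 174.1 CPM at 24 h. Its groups did not overlap either, with log2 fold changes of -0.21 (adjusted p = 0.00123) and -0.30 (adjusted p = 5.32e-06), of which the first was lost without replicate 1 of 0 h (0.0714).

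Among the other genes of that list, STUB1 (CHIP), a ubiquitin ligase for ERBB2 bound to chaperones, was higher at 12 h (0.18, adjusted p = 0.0186) and 24 h (0.21, adjusted p = 0.00333), but not after correction for GC content and length (0.402 and 0.155) or without replicate 1 of 0 h (0.364 and 0.143), and it shares 42.5% of its exon bases with JMJD8. SOCS4 was lower at 12 h (-0.22, adjusted p = 0.00717) and rose from 12 to 24 h (0.20, adjusted p = 0.0208), and LRIG3 was lower at 12 h (-0.22, adjusted p = 0.0265). The SOCS4 decrease was not called after GC and length correction (0.224) or without replicate 1 of 0 h (0.302), and its rise was not called without replicate 1 (0.0804) or 3 (0.086) of 12 h or any of the 24 h libraries (0.0855 to 0.126). The LRIG3 call was lost without either 0 h library (0.0941 and 0.176) and without replicate 1 (0.0907) or 3 (0.0757) of 12 h. CBL itself, the relative of CBLB, did not pass at 12 h (-0.09, adjusted p = 0.405) or 24 h (-0.11, adjusted p = 0.219), and USP8, which stabilizes RNF41, did not either (-0.06, adjusted p = 0.554 and -0.01, adjusted p = 0.94).

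Of 7 sorting genes, 3 were lower at 12 h, and 1 was lower and 1 higher at 24 h, where 6.75% of all genes tested were lower at 12 h, 8.49% lower at 24 h and 7.82% higher at 24 h. EPS15, an endocytic adaptor for ubiquitinated EGFR, stood at 158.0 and 141.2 CPM at 0 h, 100.6, 117.4 and 111.2 CPM at 12 h, and 105.7, 114.5 and 112.9 CPM at 24 h. All libraries with ASPN were below both time-0 libraries, with log2 fold changes of -0.45 (SE 0.056, adjusted p = 1.91e-06) and -0.43 (SE 0.056, adjusted p = 1.13e-06) that held under every alternative run. ERBIN, which binds ERBB2, and VPS4B were lower at 12 h (-0.22, adjusted p = 0.00537 and -0.20, adjusted p = 0.0154). HGS, which shares 16.7% of its exon bases with a long noncoding RNA on the opposite strand, was higher at 24 h (0.16, adjusted p = 0.0292). These last 3 calls were lost after correction for GC content and length (0.0937, 0.108 and 0.502) and without replicate 1 of 0 h (0.268, 0.37 and 0.383), that of VPS4B also without replicate 1 of 12 h (0.0917), and that of HGS also without replicate 1 (0.102), 2 (0.0686) or 3 (0.0815) of 24 h.

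**Figure D5:**
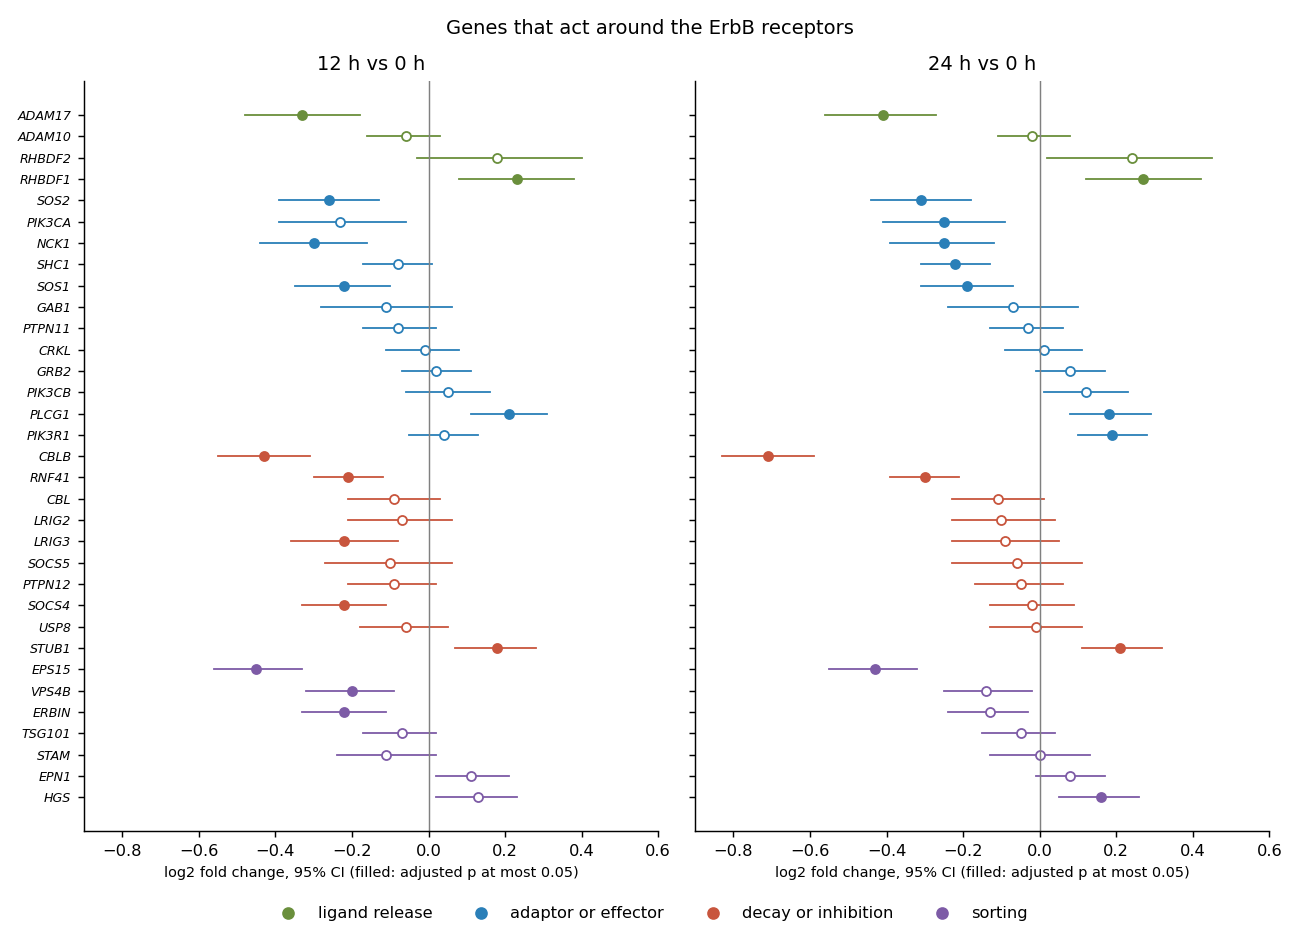
Log2 fold change against 0 h of the 33 tested genes for ligand release, adaptors and effectors, receptor decay or inhibition, and sorting, with bars for the 95% confidence interval and filled points where the adjusted p was at most 0.05. CBLB lies farthest to the left at 24 h, at -0.71, and EPS15 farthest at 12 h, at -0.45.

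Over the 8 libraries, the well-counted protein-coding genes whose levels followed ERBB2 most closely were MBOAT7, BCR and POLD2, with Pearson correlations of log2 CPM of 0.995, 0.987 and 0.986 among 8829 genes considered. For ERBB3 they were AP1S1, MIDEAS and UBE2S, at 0.968, 0.964 and 0.961. The libraries share their time group and scaling, so these values describe likeness of pattern over 8 points.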

How the data were processed

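RNA-seq libraries of LNCaP cells were analysed from the gene counts the authors deposited, which are raw and not normalized. The methods state that Cutadapt, STAR (GRCh38) and featureCounts (GENCODE genes) produced these counts; strand and multi-mapping settings are not given in the sources used here. Names, types and coordinates came from the file, and exon lengths from GENCODE 44. Of 36474 genes, 30996 had the same versioned identifier there, and all of these had the same coordinates. Names and types were not compared. Lengths were found for 36397 genes, where needed by the identifier without its version. The second 0 h column carries a number that no 0 h label has and was used as a 0 h library without number. The paper states that a time-0 replicate of LNCaP cells was excluded for missing its quality threshold. NRG1 was not analysed here.

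All genes passing filterByExpr (21071) were fitted in edgeR 4.0.16 (R 4.3.3; TMM, glmQLFit and glmQLFTest, robust, 1 coefficient per time, 8 libraries), and SE was derived from F. The biological coefficient of variation was 5.59%. Replicate pairs differed beyond sampling noise (chi-square per degree of freedom 5.1 to 13.8). In simulated counts (24 against 0 h, 20501 genes), 61.2% of genes changed 1.25-fold and 93.9% of those changed 2-fold were recovered, with 11 false calls. The simulation changed 200 genes, at 24 h alone, whereas 3437 were called at 24 h in the data. The adjusted p depends on how many genes change, so these shares need not hold for the data. The changed genes were drawn above a minimum mean count that ERBB4 does not reach, so these shares do not cover genes as scarce. Members, lists and the naming rule (every member; of other lists up to 4 called genes per comparison by p; 3 most correlated genes) were chosen with earlier results of these data known. PIK3CA, LRIG3, USP8, CBL, ADAM10, RHBDF2, NRG3, AREG and BTC, and genes sharing exons, were named after their values were seen. Alternatives comprised DESeq2 1.42.0, other normalizations and filters, compared times alone, protein-coding genes alone, GC and length correction, a replicate block and leave-one-out fits.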

Additional observations from a re-analysis of the deposited data

How the results depend on the processing

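Members past the threshold numbered 4 at 12 h (0 to 4 over leave-one-out fits, lowest without replicate 1 of 0 h, and 2 without replicate 1 of 12 h), 3 at 24 h (2 to 4), 2 between 12 and 24 h (0 to 2, lowest without replicate 3 of 12 h or replicate 1 or 2 of 24 h) and 5 over all times (4 to 5). Genes past it numbered 2443 at 12 h (624 to 2761), 3437 at 24 h (1597 to 4047), 574 between 12 and 24 h (222 to 730) and 3461 over all times (1678 to 4012), with the lowest values against 0 h without replicate 1 of 0 h. Between 12 and 24 h, GC and length correction gave 1153 genes. Pathway genes past it numbered 14 at 12 h (2 to 17), 14 at 24 h (6 to 17) and 3 between 12 and 24 h (1 to 4), where DESeq2, protein-coding genes alone, GC and length correction and the replicate block each gave 5; these pathway alternatives were chosen after seeing the data. A fit without 1 of the 0 h libraries assumes that the lone one varies like the other groups.

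The replicate block, possible between 12 and 24 h alone, gave 865 genes and left every member's call as it was. These times alone without a block gave 663 genes. Correlations of same-numbered libraries were 0.12, 0.031 and 0.026, and those of differently numbered libraries ran from -0.101 to 0.072. These values do not settle whether the numbers pair the libraries, and the main fit used no block. Signs reversed, never past the threshold, over leave-one-out fits for EGFR at 12 h (-0.022 to 0.163), ERBB4 (-0.626 to 0.265 at 12 h, -0.293 to 0.597 at 24 h), NRG4 (-0.591 to 0.253, -0.703 to 0.143) and LRIG1 (-0.064 to 0.124, -0.044 to 0.142), each by leaving out 1 of the 0 h libraries, and after GC and length correction for LRIG1 (-0.033 and -0.012). The cause was not tested. Of the members' other alternative values, 586 kept sign and side of the threshold, 31 lost the call and 5 gained it. The 586 include results that were not called in the main fit and stayed so, which had no call to lose. The differences in ERBB2 to ERBB3 ratio kept their sign in all 16 fits. With 2 libraries at 0 h and 21 to 36 counts for ERBB4, changes of the size seen in ERBB2 were not detectable for ERBB4 and NRG4.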
